A study of Mus musculus with 12 samples.

Results

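ATF4 is a basic leucine zipper transcription factor of the integrated stress response. When amino acids run short or other stresses act, kinases phosphorylate the initiation factor eIF2α, most translation slows and the Atf4 mRNA is translated more, so the Atf4 transcript level does not by itself give the amount of ATF4 protein. ATF4 then raises genes that make amino acids, import them, charge tRNAs and feed the folate cycle, and its target Ddit3 (CHOP) is linked to cell death when stress persists. In embryonic stem cells (ESCs), cultured pluripotent cells of the early embryo, these genes serve fast growth in media whose amino acid supply differs.

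The 10 genes followed here were taken by name: Atf4 and its known targets Asns, Psat1, Phgdh, Chac1, Trib3, Ddit3, Slc7a11, Slc3a2 and Mthfd2. All 10 were found among the 23503 genes of the deposited table. Of these 10, 9 passed the filter on low values and were tested, and Slc7a11 did not.

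RNA-seq libraries were made from mouse ESCs in 3 groups of 4: wild type grown in 2i, a Tfcp2l1 knockout also grown in 2i, and wild type grown in medium with serum. The 2i medium was serum-free, made from DMEM/F12 and Neurobasal with N2 and B27 supplements, the GSK3 inhibitor CHIR99021 (3 µM), the MEK inhibitor PD0325901 (1 µM) and the cytokine LIF. The serum medium, called FBS, was high-glucose DMEM with 15% fetal bovine serum, nonessential amino acids, 2 mM L-glutamine and LIF. LIF stood at 1000 units/mL in both, and both also held 2-mercaptoethanol. Between 2i and FBS the base medium, serum, inhibitors and amino acid supplement all change together, so their parts cannot be told apart. The labels name no ESC line, clone or way the knockout was made. Nor do they tie the 4 libraries of a group to separate cultures, and p-values then reflect the spread among the libraries sequenced, which may be technical.

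The FPKM values (fragments per kilobase of transcript, scaled to library size) summed to between 347772 and 358340 per library, and read depth is unknown. Tfcp2l1 itself was at 112 to 143 FPKM across the wild-type 2i libraries, 72 to 84.7 FPKM in the knockout and 25.8 to 37.1 FPKM in FBS. The transcript thus remained in the libraries labelled knockout. All 10 ESC markers examined were present in each group, the lowest being Zfp42 in FBS with a mean of 29.8 FPKM. In the knockout 6 of the 10 were called lower and 1 higher, and between media 6 were higher in 2i and 1 lower. Of 20 fibroblast markers, 19 were called higher in the knockout than in wild type in 2i and none lower. Between media, 12 of the 20 were called higher in 2i and 4 lower. Their summed level was 272 to 412 FPKM across the wild-type 2i libraries, 478 to 780 in the knockout and 109 to 149 in FBS, and none had a group mean of 0. Of 9 trophoblast markers tested, 7 were called lower in 2i than in FBS and 1 higher. In the knockout 4 were called higher and 3 lower. Summed over the 10 listed, they stood at 54.8 to 88.5 FPKM in wild type in 2i and 264 to 343 in FBS. Krt18 was the highest of them in FBS (mean 127 FPKM), and Elf5 stayed under 1 FPKM in each group. Of 10 endoderm markers at least 6 were under 1 FPKM in each group. Of the 4 tested, 3 were called higher in the knockout and none lower, and between media 1 was higher in 2i and 1 lower. The summed level of the 10, mostly that of Sparc, was 396 to 500 FPKM in wild type in 2i, 339 to 474 with the knockout and 137 to 178 in FBS. Beside these counts, 24.0% of all tested genes were called higher and 21.4% lower in the knockout. Between media the shares were 37.1% higher and 35.3% lower in 2i. The part of these cell markers in the results below was not tested, except where the fibroblast marker level is said to be in the model. Genes on chromosome 6, where Asns and Mthfd2 lie, were shifted together between libraries. Offsets of the other chromosomes were not examined. The median offset of 577 tested chromosome 6 genes outside the set from their means over the libraries was 0.045, 0.185, -0.111 and 0.211 on the log2 scale in replicates 1 to 4 of wild type in 2i. It lay between -0.085 and 0.021 in the knockout and between -0.165 and 0.060 in FBS. Wild-type replicate 3 was thus below every knockout library, and the other 3 were above them all.

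ATF4 acts through a composite DNA element, the C/EBP-ATF response element, whose usual core is TGATGCAA. The RefSeq promoter windows (GRCm38.p6, 250 bases before to 50 after each annotated start) of the 10 genes were searched on both strands for TGATGNAA and, as the strict form within it, for TGATGCAA. All 10 genes matched a window. The wider form was found in 4 of the 10 genes and in 4.51% of all 27025 genes, and the strict form in 2 of the 10 and in 1.03% of all genes. Per window the shares were 3.97% and 0.895% of 32851. The matched stretches are shown because they include the gene that differed most between media and a gene nearly silent in every library. Capitals mark the match, read 5′ to 3′ along the gene.
Asns: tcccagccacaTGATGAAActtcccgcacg
Slc7a11: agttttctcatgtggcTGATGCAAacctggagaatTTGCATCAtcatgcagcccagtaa
Chac1: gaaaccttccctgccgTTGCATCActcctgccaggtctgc
Trib3: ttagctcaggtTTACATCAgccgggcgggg

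The Asns stretch lies on the minus strand at chr6:7693214-7693243 with the match at -23 to -16, counting the annotated first base of the transcript as 1. The Slc7a11 stretch lies on the minus strand at chr3:50443637-50443695, with matches at -66 to -59 and -47 to -40. The Chac1 stretch lies on the plus strand at chr2:119351033-119351072 (match at -193 to -186) and the Trib3 stretch on the minus strand at chr2:152344028-152344057 (match at 15 to 22, within the transcript). Slc7a11 held the strict form as 2 matches in opposite orientation, and Chac1 held it once on the antisense strand. The Asns and Trib3 matches had the wider form only. Atf4, Psat1, Phgdh, Ddit3, Slc3a2 and Mthfd2 held neither form in these windows, which do not cover introns or distal sites. Coordinates of these stretches are on GRCm38.p6, whereas those of the deposited table, given below, are on mm9.

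Asns stood apart between media: its mean was 4.66-fold higher in 2i than in FBS, while the Atf4 mean was 1.16-fold higher. No other tested gene of the set differed by more than 1.43-fold between media. In the knockout, Psat1 and Trib3 were called higher, Asns, Chac1, Slc3a2 and Mthfd2 lower, and Atf4, Phgdh and Ddit3 did not pass. The Asns and Trib3 calls were kept in 12 and 11 of 25 alternative settings. Those of Asns and Mthfd2 were lost with the chromosome 6 offset removed. None of the 6 calls remained with the fibroblast marker level in the model. Of the 9, Chac1 changed most, to 59.8% of the wild-type mean.

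**Figure D1:**
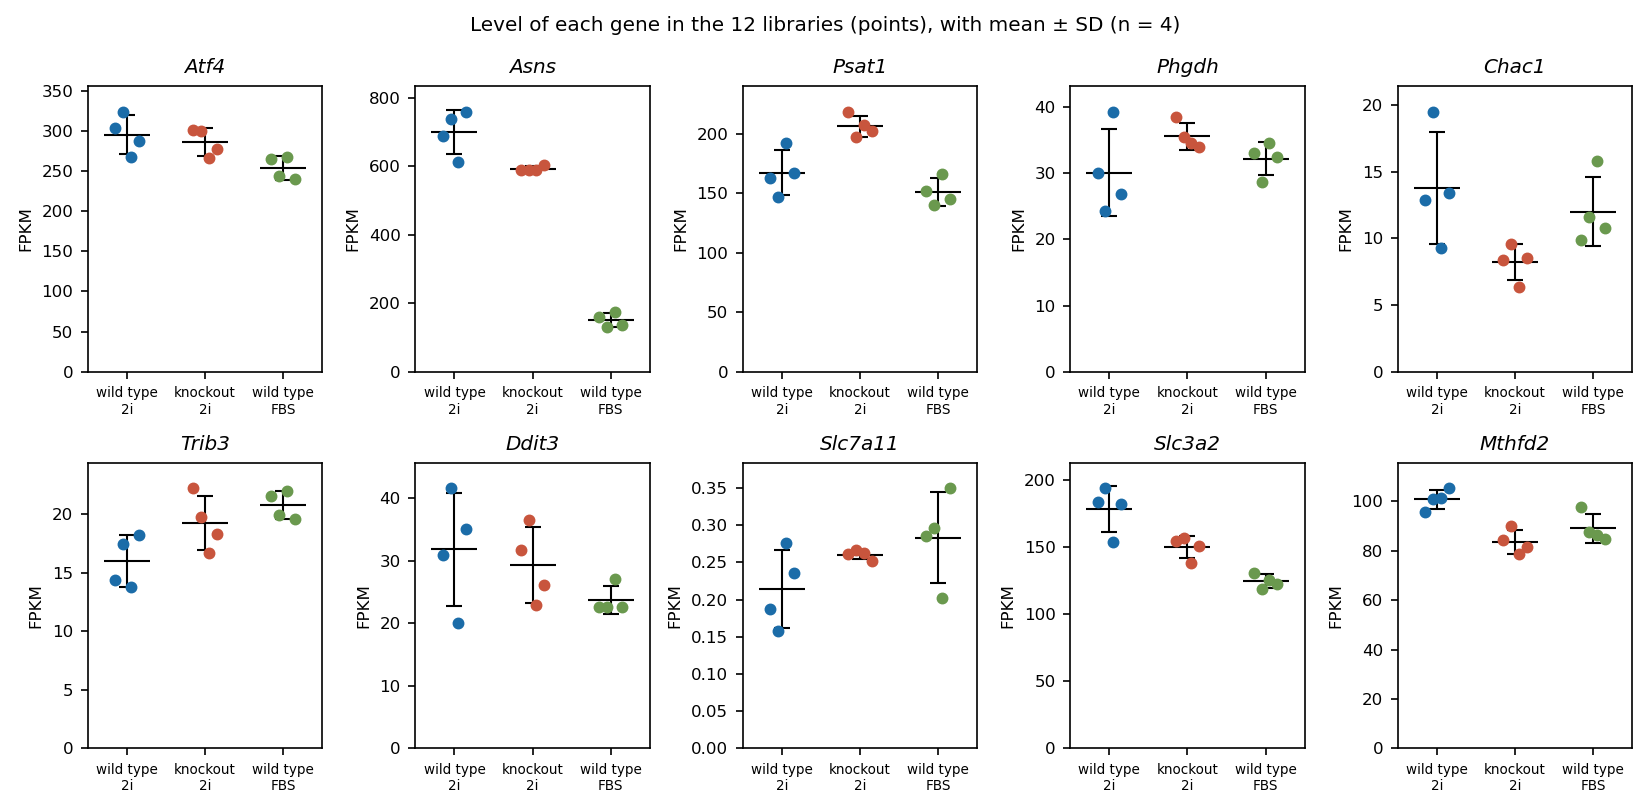
FPKM of each of the 10 genes in the 12 libraries, 1 panel per gene with its own axis from 0; points are libraries and bars the mean ± SD (n = 4). Asns lies between 130.3 and 173.4 FPKM in FBS and between 587.8 and 758 FPKM in the 8 libraries in 2i, whereas Atf4 spans 239.5 to 323.5 FPKM over all 12.

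In the knockout comparison 6 of the 9 tested genes were called at an adjusted p under 0.05 (limma, adjusted over all 12329 genes tested), against 45.3% of all genes. Of these 6, 2 were higher, against 24.0% of all genes, and 4 lower, against 21.4%. The 4 knockout and 4 wild-type libraries did not overlap for 3 of the 9, Asns, Psat1 and Mthfd2, against 44.1% of all genes. The median log2 change of the 9 was -0.09, beside 0.01 over all genes. In the comparison of 2i with FBS, 5 of the 9 were called, against 72.4% of all genes, 4 higher in 2i (37.1% of all genes) and 1 lower (35.3%). Their libraries did not overlap for 3 of the 9, Asns, Slc3a2 and Trib3, against 62.5% of all genes. The median log2 difference was 0.18, beside 0.01 over all genes. Both comparisons use the same 4 libraries of wild type in 2i. Log2 values are differences of log2(FPKM + 1), which understates the change of low genes.

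**Figure D2:**
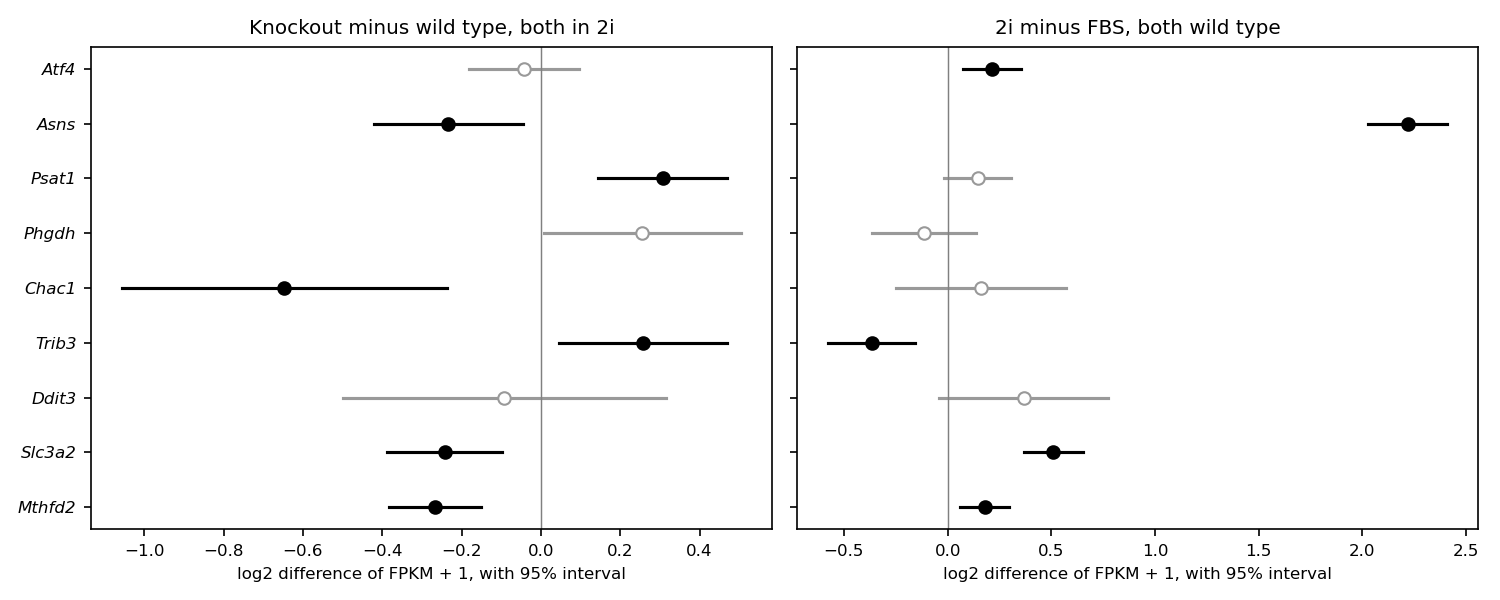
Log2 difference of FPKM + 1 for the 9 tested genes with its 95% interval, for knockout minus wild type in 2i (left) and 2i minus FBS in wild type (right, wider axis); filled points passed an adjusted p of 0.05 and open points did not. Asns at 2.22 lies far to the right of the other genes between media, and in the knockout the differences run from -0.65 (Chac1) to 0.31 (Psat1).

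Atf4, the regulator (NM_009716; mm9 chromosome 15, 80085614 to 80087971), was among the more abundant transcripts, ranking 125 of 23496 genes by mean FPKM across the wild-type 2i libraries. It stood at 303, 323.5, 266.9 and 287.4 FPKM across the wild-type 2i libraries, at 301.6, 300.4, 266.6 and 276.9 in the knockout, and at 265.3, 243.3, 267.7 and 239.5 in FBS. The knockout and wild-type ranges in 2i almost coincide, and the FBS libraries overlap the lower end of both. The knockout mean of 286.4 ± 17.42 FPKM was not distinguished from the wild-type mean of 295.2 ± 23.98 (log2 change -0.04, 95% interval -0.18 to 0.10, adjusted p = 0.619). Atf4 was higher in 2i than in FBS, where the mean was 253.9 ± 14.61 FPKM (log2 difference 0.22, SE 0.06, adjusted p = 0.00902). With 8201 of 12329 genes showing a larger absolute difference between media, this was a small one. The 5 tested genes whose levels tracked Atf4 most closely over the 12 libraries were Nek9 (Pearson r = 0.959), 3110040N11Rik (0.955), Ociad1 (0.952), Dnajc9 (0.951) and Vars2 (0.949). These r describe 12 libraries that also share group and library effects.

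Asns (NM_012055; mm9 chromosome 6, 7625171 to 7643182), asparagine synthetase, makes asparagine from aspartate and glutamine and is a classic amino acid response gene. It stood at 686.8, 737.7, 612.6 and 758 FPKM across the wild-type 2i libraries, at 588, 589.8, 587.8 and 604.7 in the knockout, and at 160.6, 130.3, 173.4 and 135.4 in FBS. The lowest library in 2i, at 587.8, lay far above the highest in FBS, at 173.4, and every knockout library lay below every wild-type library in 2i. Between media the means were 698.8 ± 64.78 and 149.9 ± 20.5 FPKM (log2 difference 2.22, SE 0.09, 95% interval 2.03 to 2.41, adjusted p = 4.28e-10). Only 231 of the 12329 tested genes differed more. Asns ranked 39 of 23496 by mean FPKM across the wild-type 2i libraries, 41 in the knockout and 378 in FBS. All 25 alternative settings kept this call, with log2 differences of 2.09 to 2.29.

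The ratio of Asns to Atf4, both in FPKM and so per length, was 2.27, 2.28, 2.3 and 2.64 in wild type in 2i and 1.95, 1.96, 2.2 and 2.18 in the knockout. In FBS it was 0.605, 0.536, 0.648 and 0.565. Asns thus exceeded Atf4 in all 8 libraries in 2i and was below it in all 4 in FBS.

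In the knockout the Asns mean was 592.6 ± 8.144 FPKM, 84.8% of wild type (log2 change -0.23, SE 0.09, adjusted p = 0.0448). This call was kept in 12 of 25 alternative settings, with adjusted p from 0.004 to 0.633. Removing the chromosome 6 offset of each library brought the change to -0.09 (adjusted p = 0.43), and quantile normalization to -0.06 (0.633). Leaving out any 1 knockout library, or wild type in 2i replicate 1, 2 or 4, also ended it. The 5 genes most like Asns over the 12 libraries were Denn2b (r = 0.995), Pde8a (0.995, with means of 14.29 FPKM across the wild-type 2i libraries, 11.16 in the knockout and 2.095 in FBS), Tdrp (0.994), Ccdc93 (0.994) and Wsb1 (0.993). All 5 had lower means in FBS than in either group in 2i. This follows from choosing them by r over libraries in which Asns differed mostly between media.

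Phgdh and Psat1 catalyse the first and the following step of serine synthesis from glycolysis, and their order of groups differed from that of Asns. Psat1 (NM_177420 with 99.8% of the FPKM, and NM_001205339; mm9 chromosome 19, 15979613 to 15999549) stood at 163.1, 146.8, 192.5 and 166.8 FPKM across the wild-type 2i libraries, at 218.3, 197.5, 207 and 202.4 in the knockout, and at 152, 139.8, 166.6 and 145.3 in FBS. All 4 knockout libraries were above all other libraries. The rise in the knockout was from 167.3 ± 18.91 to 206.3 ± 8.898 FPKM (log2 change 0.31, SE 0.08, adjusted p = 0.00543). Between media Psat1 did not pass, with a log2 difference of 0.14 (95% interval -0.02 to 0.31, adjusted p = 0.101), though it did without wild type in 2i replicate 2 (0.0205), without FBS replicate 3 (0.0368) and with the replicate number as a block (0.0319).

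Phgdh (NM_016966; mm9 chromosome 3, 98117094 to 98143892), the enzyme that commits carbon to serine, was lower than Psat1 in every library. It stood at 29.98, 24.22, 39.23 and 26.88 FPKM across the wild-type 2i libraries, at 38.48, 35.41, 34.49 and 33.87 in the knockout, and at 32.97, 28.73, 34.57 and 32.47 in FBS. Wild type in 2i held both the lowest and the highest library, and replicate 3 set its upper end. Neither comparison passed: the knockout change was 0.26 (95% interval 0.01 to 0.50, adjusted p = 0.0871) and the difference between media -0.11 (-0.36 to 0.14, adjusted p = 0.386). Without wild type in 2i replicate 3 both passed, at 0.39 in the knockout (adjusted p = 0.00163) and -0.25 between media (0.0126). Array weights, which give less weight to libraries that vary more, also gave the knockout call (0.00546).

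Mthfd2 (NM_008638; mm9 chromosome 6, 83255698 to 83267598), a mitochondrial enzyme of the folate cycle that uses carbon units from serine, varied little. It stood at 95.75, 101.1, 101.2 and 105.2 FPKM across the wild-type 2i libraries, at 84.33, 89.83, 78.64 and 81.49 in the knockout, and at 97.63, 87.41, 86.41 and 84.88 in FBS. The knockout libraries lay below all wild-type libraries in 2i, and 1 FBS library reached into the wild-type range. Mthfd2 fell in the knockout from 100.8 ± 3.859 to 83.57 ± 4.776 FPKM (log2 change -0.27, SE 0.05, adjusted p = 0.00156) and was higher in 2i than in FBS (0.18, SE 0.05, adjusted p = 0.00941). With the chromosome 6 offset removed neither passed: the values were -0.13 (adjusted p = 0.102) and 0.05 (0.458). The difference between media also failed with array weights (0.101).

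Slc3a2 and Slc7a11 encode partners. SLC3A2 (CD98 heavy chain) carries several amino acid transporter light chains to the membrane, and SLC7A11 (xCT) is the light chain that imports cystine in exchange for glutamate. Slc3a2 (NM_008577 with 96.6% of the FPKM, and NM_001161413; mm9 chromosome 19, 8781372 to 8797859) stood at 183.6, 193.9, 154 and 182.3 FPKM across the wild-type 2i libraries, at 154.6, 157, 138.3 and 151.2 in the knockout, and at 131, 118.7, 125.9 and 122.8 in FBS. Every FBS library was below every library in 2i, and the knockout overlapped wild type only through wild-type replicate 3. Slc3a2 was higher in 2i than in FBS, with means of 178.4 ± 17.12 and 124.6 ± 5.174 FPKM (log2 difference 0.51, SE 0.07, adjusted p = 1.52e-05). In the knockout it fell to 150.3 ± 8.313 FPKM (log2 change -0.24, SE 0.07, adjusted p = 0.00993).

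Slc7a11 (NM_011990; mm9 chromosome 3, 50168858 to 50247535) was near the floor of the table in every library, although its promoter held the strict element as 2 matches. It stood at 0.188, 0.158, 0.276 and 0.236 FPKM across the wild-type 2i libraries, at 0.261, 0.267, 0.262 and 0.252 in the knockout, and at 0.285, 0.297, 0.202 and 0.349 in FBS. The ranges overlap, no library reached 1 FPKM, and the gene was not tested. The authors' bounds around these values reached a median of 23.5% of the value to either side.

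Chac1, Ddit3 and Trib3 are stress effectors of the pathway. CHAC1 degrades glutathione, DDIT3 (CHOP) is a transcription factor of prolonged stress, and TRIB3 is a pseudokinase that restrains ATF4. Chac1 (NM_026929; mm9 chromosome 2, 119176978 to 119180062) stood at 12.86, 19.47, 9.307 and 13.41 FPKM across the wild-type 2i libraries, at 8.409, 9.595, 6.379 and 8.539 in the knockout, and at 9.872, 11.63, 15.78 and 10.76 in FBS. The knockout was low throughout, overlapping wild type only at wild-type replicate 3. Chac1 fell from 13.76 ± 4.219 to 8.23 ± 1.344 FPKM (log2 change -0.65, SE 0.19, adjusted p = 0.0144). Between media it did not pass (0.16, 95% interval -0.25 to 0.57, adjusted p = 0.465).

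Ddit3 (NM_007837; mm9 chromosome 10, 126727849 to 126733344) stood at 30.9, 41.55, 20.02 and 35 FPKM across the wild-type 2i libraries, at 31.65, 36.58, 22.93 and 26.07 in the knockout, and at 22.66, 22.65, 27.12 and 22.55 in FBS. Wild type in 2i spanned more than the other groups, and its replicate 3 was the lowest of the 12. Neither comparison passed: the knockout change was -0.09 (95% interval -0.50 to 0.32, adjusted p = 0.714) and the difference between media 0.37 (-0.04 to 0.78, adjusted p = 0.0951). Without wild type in 2i replicate 3 the latter was 0.57 (adjusted p = 0.00324), and with array weights 0.45 (0.0336).

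Trib3 (NM_175093; mm9 chromosome 2, 152163161 to 152169796) was the tested gene of the set with a called difference opposite to Asns in both comparisons. It stood at 14.38, 17.48, 13.74 and 18.23 FPKM across the wild-type 2i libraries, at 22.18, 19.74, 16.69 and 18.31 in the knockout, and at 21.57, 19.88, 21.99 and 19.55 in FBS. Every FBS library was above every wild-type library in 2i, and the knockout lay across both. Trib3 was lower in 2i than in FBS, with means of 15.96 ± 2.23 and 20.75 ± 1.209 FPKM (log2 difference -0.37, SE 0.10, adjusted p = 0.0043). In the knockout it rose to 19.23 ± 2.331 FPKM (log2 change 0.26, SE 0.10, adjusted p = 0.0467), a call kept in 11 of 25 alternative settings (adjusted p from 0.0115 to 0.295). It was lost without any 1 of the FBS libraries, of wild-type 2i replicates 1 and 3, or of knockout replicates 1, 2 and 4.

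The level of fibroblast markers moved with genotype, from a mean log2 level of 2.89 to 3.40 for wild type in 2i to 3.58 to 4.24 in the knockout, beside 2.15 to 2.47 for FBS. These ranges do not overlap, so the level is confounded with group, and a larger SE follows from the design. A lost call therefore cannot tell an effect of group from one of the marker level. Once the model held this level, none of the 6 knockout calls in the set remained (0 of 6), all 6 directions were kept and the median SE of the 6 went from 0.08 to 0.15. The values then ran from -0.40 for Chac1 (adjusted p = 0.489), -0.35 for Asns (0.18), -0.32 for Mthfd2 (0.0561) and -0.16 for Slc3a2 (0.429) to 0.22 for Psat1 (0.33) and 0.31 for Trib3 (0.295). Between media 3 of 5 calls remained, those of Atf4, Asns and Slc3a2. Mthfd2 (0.12, adjusted p = 0.397) and Trib3 (-0.31, 0.237) did not. In bulk samples a different share of a cell type and a different amount of RNA per cell cannot be told apart.

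Within groups, some of the 9 tested genes deviated in the same direction from library to library. As deviations from group means over the 12 libraries, Atf4, Asns, Slc3a2, Chac1, Ddit3 and Trib3 varied together, with r above 0 in 15 of 15 pairs (0.561 to 0.887, median 0.725). Chac1 with Ddit3 (0.887), Ddit3 with Slc3a2 (0.885) and Atf4 with Slc3a2 (0.876) were the closest of these pairs. Psat1 and Phgdh varied with each other (r = 0.894). These sets were named after the values were seen, so their high r follow in part from the choice. The r are descriptions with no test, and no r of other gene pairs is given beside them.

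Each group had at least 1 library with all 6 genes of the first set on the same side of their group means. In wild type in 2i replicate 2 all 6 were above, by 0.24 on average, while Psat1 and Phgdh were below theirs by an average of -0.23. Replicate 3 was the reverse, at -0.30 for the 6, with 0 of 6 above the mean, and 0.30 for Psat1 and Phgdh. Over all genes the median deviation of these libraries was 0.00 and -0.01. Knockout replicate 3 also had 0 of 6 above the mean (-0.17). In FBS, replicate 3 had 6 of 6 above it (0.16) and replicates 2 and 4 had 0 of 6 (-0.08 and -0.09).

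Without wild type in 2i replicates 2 and 3 the 6 genes were still positively related in 15 of 15 pairs (0.323 to 0.826). The relation of the 6 with Psat1 and Phgdh turned from a median of -0.393 to 0.408 over 12 pairs, so its negative sign rested on those libraries. They were chosen for leaving out after the values were seen. Mthfd2 followed neither set closely (-0.003 to 0.538 with the other 8).

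**Figure D3:**
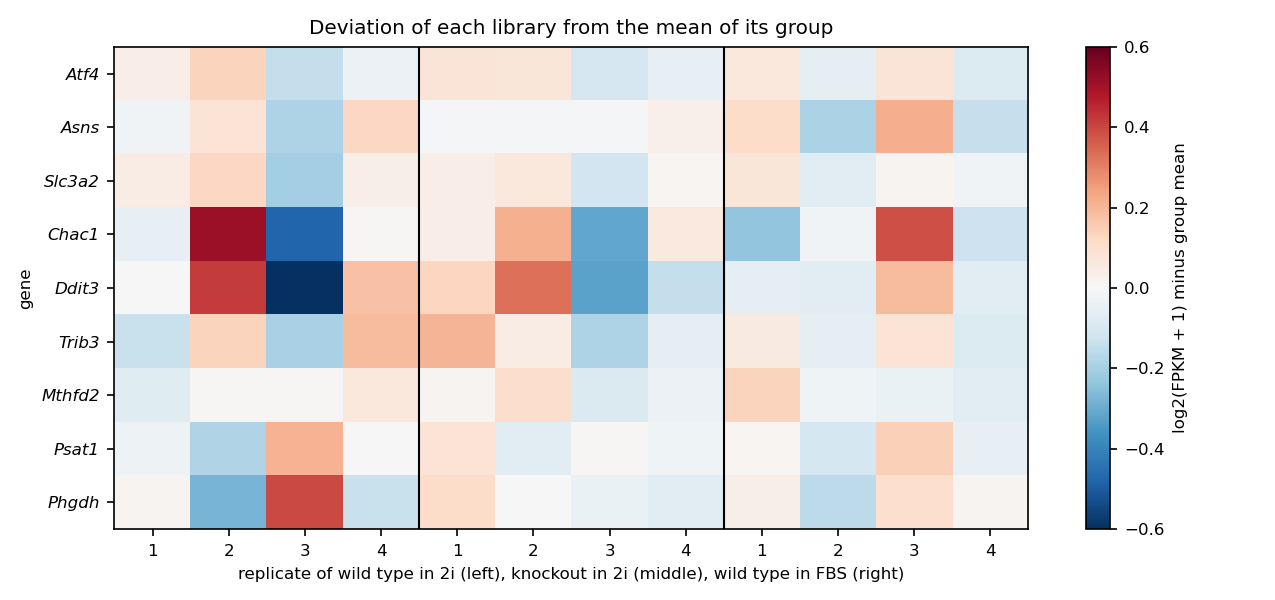
Deviation of each library (columns, replicates 1 to 4 of each group) from its group mean of log2(FPKM + 1), for the 9 tested genes (rows); red is above and blue below the mean. Ddit3 runs from 0.42 in wild type in 2i replicate 2 to -0.60 in replicate 3, and Phgdh goes the other way in those libraries, from -0.28 to 0.40.

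Other genes of the pathway were taken from 10 lists. Their counts stand beside 24.0% of all tested genes called higher and 21.4% called lower in the knockout. Between media these shares were 37.1% higher and 35.3% lower in 2i. No list was tested against these shares, and several counts lie near them. Among eIF2α kinases, phosphatase subunits and their helpers, 9 tested, 1 was called higher and 3 lower in the knockout. The phosphatase subunit Ppp1r15b, which reverses eIF2α phosphorylation, fell from 48.68 ± 4.719 to 36.16 ± 1.363 FPKM (adjusted p = 0.000321), and Impact, an inhibitor of the kinase GCN2, rose from 37.44 to 46.22. Of the kinases, Eif2ak3 (PERK, on chromosome 6) fell from 10.74 to 8.434 FPKM (adjusted p = 0.0251) and Eif2ak4 (GCN2) from 8.416 to 7.534 (0.0418). Both were lost without wild type in 2i replicate 2 (0.0691 and 0.111), among other settings. Between media 4 were higher and 4 lower in 2i: Ppp1r15a (68.89 against 41.58 FPKM) and Ppp1r15b (48.68 against 32.5) were higher, and Eif2s1, which encodes eIF2α (43.65 against 56.57), and Impact (37.44 against 62.64) were lower. Gcn1, an activator of GCN2, did not pass, at 19.27 and 19.45 FPKM.

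Of 6 partner and downstream transcription factors, 4 were called higher in 2i than in FBS and 1 lower, with a median log2 difference of 1.08. The bZIP factors Jdp2 (16.48 ± 1.501 against 2.722 ± 0.7916 FPKM), Atf5 (23.17 ± 6.389 against 9.709 ± 1.263) and Atf3 (31.64 ± 10.86 against 14.62 ± 1.868), and the stress regulator Nupr1 (124.7 ± 22.06 against 31.38 ± 7.199), were the ones higher. In the knockout 2 rose and none fell: Atf5 to 38.53 ± 4.072 FPKM (log2 change 0.74, adjusted p = 0.00162) and Cebpb from 8.821 to 13.22 (0.55, adjusted p = 0.00643). With the fibroblast marker level in the model Atf5 was at 0.52 (adjusted p = 0.23) and Cebpb at -0.10 (0.667). Between media Cebpb did not pass, but with that level in the model it was lower in 2i (-0.91, adjusted p = 0.000502).

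Serine, folate and proline genes beyond the 10 split in direction. Of 11 tested, 5 were higher and 5 lower in 2i than in FBS. The proline synthesis genes Aldh18a1 (42.5 against 28.53 FPKM) and Pycr1 (15.51 against 6.03) and the alanine transaminase Gpt2 (39.08 against 18.93) were among those higher. In the knockout 3 rose and 1 fell. Among them, Shmt2, which splits serine in mitochondria, rose from 83.17 ± 12.8 to 113.8 ± 7.25 FPKM (adjusted p = 0.00134) and Mthfd1 from 115.5 to 130.7, and Gpt2 fell to 25.44. Got1 did not pass in either comparison, at 97.84, 109.3 and 105.4 FPKM for the wild-type 2i, knockout and FBS groups.

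Of 9 further amino acid transporters tested, 4 were higher and 3 lower in 2i than in FBS. The cationic transporter Slc7a1 was 3.01-fold higher (27.38 ± 2.313 against 9.106 ± 0.3253 FPKM, adjusted p = 4.94e-10) and the glutamine transporter Slc1a5 2.1-fold higher (108.4 against 51.51). The neutral amino acid transporters Slc38a2 (47.8 ± 1.603 against 135.6 ± 15.2 FPKM, adjusted p = 4.29e-09) and Slc38a1 (14.21 against 25.26) were lower. In the knockout 2 rose and 2 fell: Slc38a2 to 67.65 FPKM and Slc43a1 from 10.76 to 16.58 rose, and Slc7a1 to 22.34 and Slc1a5 to 83.61 fell. Slc7a5, a light chain that pairs with SLC3A2, did not pass, at 119.4 and 111.1 FPKM. The Slc43a1 call did not hold when only its highest entry was used (adjusted p = 0.101).

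The tRNA synthetases known as ATF4 targets, listed with the exporter Xpot, gave 7 higher and 4 lower of 13 in 2i, with Aars (190.5 ± 3.295 against 119.5 ± 4.953 FPKM), Cars (73 against 46.79), Gars (258.9 against 190.4) and Nars (178.9 against 144) among those higher. Eprs did not pass, at 79.09 and 79.76 FPKM. The remaining 8 cytosolic synthetases gave 1 higher and 7 lower, among them Kars (107.3 ± 3.579 against 171 ± 8.525 FPKM), Rars (56.69 against 81.61), Vars (60.49 against 79.87) and Farsa (37.7 against 53.84). The median log2 difference was 0.13 for the first list and -0.30 for the second. The difference between the lists was not tested, and the lists were chosen with earlier results of these data known. In the knockout 2 rose and 1 fell of the first list, and 3 rose and 2 fell of the second. In the first list Lars (59.13 to 76.23 FPKM) and Sars (69.46 to 86.01) rose and Aars fell (190.5 to 177.7). The Aars call was lost with scaling to TPM (adjusted p = 0.107), among other settings. In the second, Kars (107.3 to 124.8 FPKM), Vars (60.49 to 67.32) and Rars (56.69 to 63.56) rose, and Hars (41.72 to 36.28) was among those that fell.

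Cysteine and glutathione genes gave 4 lower and none higher of 8 in the knockout. Gss, glutathione synthetase, fell from 25.16 ± 1.496 to 15.46 ± 1.52 FPKM (log2 change -0.67, adjusted p = 6.14e-05), Cth, which makes cysteine from cystathionine, from 142.8 ± 9.608 to 96.57 ± 15.77 (-0.57, adjusted p = 0.00133), and Cbs from 19.01 to 14.06. Ggct, on chromosome 6, fell from 15.79 to 11.7 FPKM but had an adjusted p of 0.0506 with the chromosome 6 offset removed. Cbs was lost when only its highest entry was used (-0.25, adjusted p = 0.201) and without any of wild-type 2i replicates 1, 2 and 4 or knockout replicates 1, 3 and 4. Gsr did not pass, at 59.14 and 53.07 FPKM. Between media 4 were higher and 3 lower in 2i: Cth (142.8 against 39.55 FPKM) and Gss (25.16 against 8.569) were higher, and Gclm, a subunit of the rate-limiting glutathione enzyme (24.26 against 47.32), and Chac2 (1.35 against 3.152) were lower.

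Other stress targets of ATF4 gave 4 lower and none higher of 13 in the knockout. The stress cytokine Gdf15 fell from 15.24 ± 2.909 to 5.082 ± 0.8916 FPKM (log2 change -1.41, adjusted p = 6.91e-06) and the mTOR inhibitor Ddit4 from 72.3 ± 11.03 to 36.21 ± 3.487 (-0.97, adjusted p = 5.54e-05). Trib1 (16.39 to 11.32 FPKM) and Vegfa (33 to 24.51) fell as well, Vegfa with an adjusted p of 0.051 when the highest entry per symbol was used. Eif4ebp1, a translation repressor, did not pass, at 424.2 and 408.2 FPKM. Between media 6 were higher and 4 lower in 2i, with Gdf15 (15.24 against 2.888 FPKM), Vegfa (33 against 14.37), Eif4ebp1 (424.2 against 307.6) and Sesn2, an inhibitor of mTORC1 (62.51 against 39.87), higher.

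Genes of endoplasmic reticulum chaperones and the unfolded protein response gave 9 lower and none higher of 15 in the knockout, with a median log2 change of -0.23. Dnajc3 (12.76 ± 0.5445 to 8.02 ± 0.1884 FPKM), Sdf2l1 (36.21 ± 0.7525 to 23.95 ± 0.6583), Creld2 (53.66 to 41.24) and Hyou1 (57.03 to 44.93) fell, and Calr did not pass (450 and 397). Between media 5 were higher and 2 lower in 2i, with Sdf2l1 at 36.21 against 18.69 FPKM. NRF2 targets and regulators, of interest because NRF2 also drives Slc7a11, gave 1 higher and 5 lower of 9 in the knockout. Nfe2l2, which encodes NRF2, fell from 42.66 ± 1.643 to 27.92 ± 2.234 FPKM (adjusted p = 4.02e-06), the malic enzyme Me1 from 13.57 to 5.817, Gsta4 from 375.9 to 254.4 and Nqo1 from 23.17 to 14.43. Between media 5 of the 9 were higher and 4 lower in 2i, with Me1 higher (13.57 against 4.584 FPKM) and G6pdx (16.98 against 28.01), Srxn1 (10.14 against 19.65) and Hmox1 (57.61 against 114.8) lower.

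**Figure D4:**
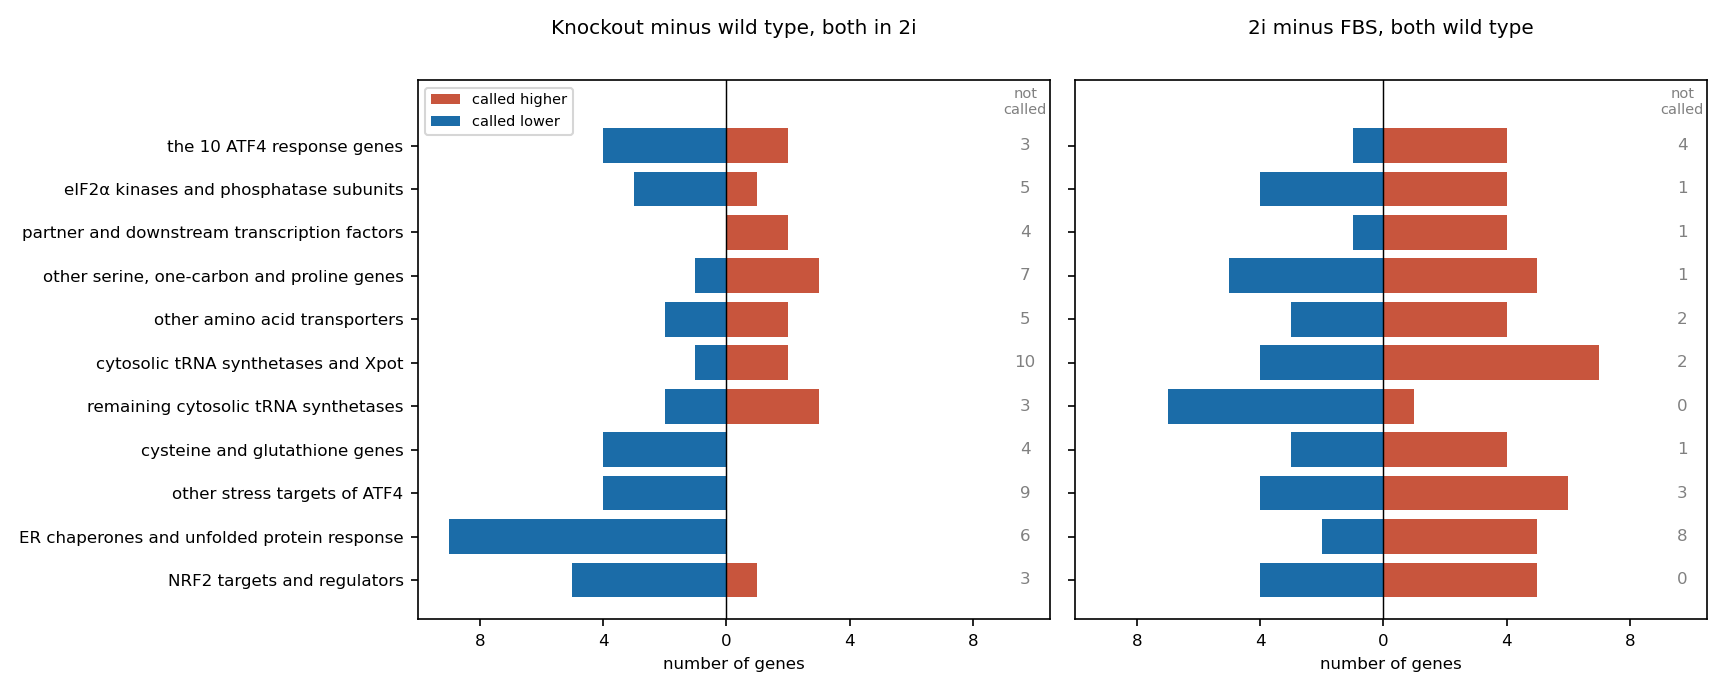
Number of tested genes called higher (red, to the right) or lower (blue, to the left) at an adjusted p under 0.05 in the 10 genes and the 10 further lists, with the number not called in grey, for knockout minus wild type in 2i (left) and 2i minus FBS (right). In the knockout the list of chaperones and unfolded protein response genes has 9 lower and none higher. Between media the remaining tRNA synthetases have 7 lower and 1 higher. Over all tested genes 24.0% were called higher and 21.4% lower in the knockout, and 37.1% higher and 35.3% lower between media. The lists were chosen with earlier results of these data known, and none was tested against these shares.

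With the fibroblast marker level in the model, 12 of the 37 knockout calls among the genes picked from these lists remained and 36 of 37 kept their sign, as the median SE went from 0.09 to 0.14. Between media 39 of 40 remained, with Nars lost (adjusted p = 0.135). Some that did not remain had a log2 change at least as large as before, with a larger SE. Among these were Impact (0.30 before, 0.46 with the level in the model, adjusted p = 0.088), Slc1a5 (-0.37 and -0.45, 0.0983), Gpt2 (-0.60 and -0.69, 0.0506), Trib1 (-0.50 and -0.57, 0.0969) and Vegfa (-0.41 and -0.48, 0.162). Others had a smaller one, among them Ppp1r15b (-0.42 and -0.33, 0.0927), Shmt2 (0.46 and 0.38, 0.162), Slc38a2 (0.49 and 0.42, 0.0732), Lars (0.37 and 0.28, 0.144), Sars (0.31 and 0.28, 0.134), Creld2 (-0.37 and -0.34, 0.0633), Hyou1 (-0.34 and -0.25, 0.122) and Nqo1 (-0.65 and -0.51, 0.136). Gdf15, Ddit4, Gss, Cth, Dnajc3, Sdf2l1, Me1, Nfe2l2, Gsta4, Slc7a1, Mthfd1 and Kars remained.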

How the data were processed

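Per the labels' protocols, Trizol was used for RNA and an Illumina TruSeq kit for the libraries. The authors deposited 1 table of FPKM values for 30761 RefSeq transcripts in 12 libraries. The submitters' processing notes name CASAVA 1.8.2, Cufflinks (version not given) and mm9. The aligner is not given in the sources used here. Identifiers were matched to symbols for 98.8% of entries, FPKM were summed per symbol, and 7 genes with a failed estimate were left out, leaving 23496.

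The 12329 genes that reached 1 FPKM in 4 or more libraries were tested on log2(FPKM + 1) with limma 3.58.1 in R 4.3.3, with 1 mean per group over all 12 libraries, an empirical Bayes trend, two-sided tests and Benjamini-Hochberg adjustment over all genes tested. The method was tested on simulated data. Errors printed as ± are SD over 4 libraries, and intervals are 95%. Read depth is unknown, so no counting error could be given. Where the FPKM came with bounds, those of Atf4, Asns, Ddit3 and Mthfd2 did not enclose the value in any of the 12 libraries and were not used. Those of Phgdh enclosed it in only 3 of the 12 libraries and were not used either.

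All 10 genes are named. From each further list, a rule picked up to 4 called genes with the smallest adjusted p per comparison and the most abundant gene not called. Not every gene picked is named in the text for its comparison. A gene of these lists that the rule picked is not reported here. The 10 genes and the lists were chosen with earlier results of these data known. Alternatives were other pseudocounts, filters, scalings, entries per symbol and models, and leaving out each library.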

Additional observations from a re-analysis of the deposited data

Results flagged for a closer look

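For the 10 genes, 30 groups of 4 libraries were examined for a library far from the others by Dixon's test at the 95% level, which chance alone gives in about 1 of 20 groups. Asns in the knockout had its highest library, replicate 4, at 604.7 FPKM, with the nearest at 589.8 and a gap of 0.88 of the range. The 3 other knockout libraries lay between 587.8 and 589.8 FPKM. Ddit3 in FBS had its highest library, replicate 3, at 27.12 FPKM, with the nearest at 22.66 and a gap of 0.975 of the range.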

How the results depend on the processing

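The number of the 10 genes called higher in the knockout went from 2 to 1 with no filter, with only the 8 libraries of the comparison, with the highest entry per symbol and with the replicate block, and to 0 with the fibroblast marker level as a covariate. It went to 3 with array weights and ranged from 1 to 2 on leaving out 1 library. The number called lower went from 4 to 2 with the chromosome 6 offset removed and to 0 with the fibroblast covariate. It was 3 with no filter, scaling to TPM, quantile normalization and the replicate block, and ranged from 3 to 4 on leaving out 1 library. Between media the number called lower went from 1 to 0 with that covariate and ranged from 1 to 2 on leaving out 1 library (2 without wild type in 2i replicate 3). With the covariate 1817 genes were called in the knockout and 5768 between media, and Cebpb reversed in the knockout to -0.10 (adjusted p = 0.667). In that model the standard errors were larger and log2 changes also moved, and its covariate did not overlap between groups. The cause of these changes in calls was not tested.

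The main model did not pair same-numbered libraries. In the knockout comparison their deviations correlated at 0.055 to 0.258 (3 of 4 pairs over 0.1), with 6 of 8 libraries closest to their own number. Between media they correlated at 0.027 to 0.186 (2 of 4 pairs), with 4 of 8. Whether same-numbered libraries share an effect was not tested. With the replicate block 4 of 6 knockout calls in the set were kept, Asns (adjusted p = 0.0769) and Trib3 (0.061) being lost, and 5 of 5 between media. Unknown read depth limits what can be said of Slc7a11 and other low genes.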
